A study of Homo sapiens with 52 samples.

Results

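The transcripts of DENR were followed as 2 rows of the deposited count table, ENST00000280557.11 and ENST00000455982.2, among 226882 transcript rows. The first was taken as a transcript of DENR by its identifier. The second was added because its counts were lost in parallel when DENR was silenced, so its assignment to DENR rests on that likeness. The values that chose it are those of DENR siRNA against control siRNA, and they are given here as a description, without a test. The table does not pair identifiers with gene symbols, and the RefSeq gene table used here lists DENR and 4 DENR pseudogenes but no Ensembl transcripts.

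DENR and its partner MCTS1 form a heterodimer that binds the small (40S) ribosomal subunit. The dimer helps to clear tRNA and the 40S subunit from an mRNA after termination and promotes reinitiation after short upstream open reading frames. eIF2D combines domains related to both proteins in a single polypeptide. An siRNA directs the cleavage of mRNAs that match it, so the DENR mRNA is both the target of the knockdown and the readout of its depth.

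Every sample came from HEK293T, an established line of transformed human embryonic kidney cells. 42 libraries in 20 groups were analysed, with 2 libraries in every group except wild type TCP-seq, which had 4. RNA-seq and Ribo-seq were made from wild type cells (WT), 2 MCTS1 knockout lines (MCTS1 KO #1 and #2), cells with a control siRNA (siControl) and cells with either of 2 siRNAs against DENR (siDENR #1 and #2). TCP-seq, which profiles fragments held in translation complexes, was made from WT, MCTS1 KO #1 and #2 and eIF2D KO #1 and #2. In 40S Sel-TCP-seq, small-subunit complexes were pulled out by the V5 tag of eIF2D-V5, MCTS1-V5 or DENR-V5. A further 10 TCP-seq samples were not analysed here: WT empty, eIF2D KO #1 empty, and eIF2D KO #1 with eIF2D-V5 OE, eIF2D OE or eIF2D(deltaWH)-V5 OE. The labels do not say how the knockouts were made, whether each knockout line is 1 clone, how long the siRNAs acted, which sequences they carry, or whether the tagged proteins came from an added transgene. Since they also leave out whether the libraries of a group came from separate cultures, a p-value here measures only how far such libraries lie apart, and that spread may be technical.

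Library totals ran from 76967099 to 301214608 counts in RNA-seq, 16370112 to 193940882 in Ribo-seq, 1609303 to 5053637 in TCP-seq and 356019 to 2582917 in Sel-TCP-seq. Levels are given as CPM, counts scaled to a library total of 1000000. CPM is not divided by transcript length, so the levels of the 2 transcripts are not set against each other. Intervals are exact Poisson or Clopper-Pearson 95% intervals and cover counting error only. ENST00000280557 rested on 105 to 11140 counts in an RNA-seq library, 102 to 3260 in Ribo-seq, 48 to 229 in TCP-seq and 12 to 45 in Sel-TCP-seq.

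In RNA-seq, nearly all of the DENR signal was gone after either siRNA. ENST00000280557 stood at 33.6 and 29.8 CPM in the 2 siControl libraries, at 1.21 and 1.69 with siDENR #1, and at 2.68 and 2.80 with siDENR #2. The siDENR and control libraries lay far apart, and siDENR #1 was the lower of the 2 siRNAs in both libraries. The mean left was 4.57% of control with siRNA #1, a 21.9-fold loss, and 8.65% with siRNA #2, an 11.6-fold loss. ENST00000455982 stood at 20.2 and 17.9 CPM in siControl, 0.737 and 0.845 with siRNA #1, and 1.60 and 1.59 with siRNA #2. Its mean was thus 4.15% and 8.38% of control, close to the shares of the first transcript. Over both siRNAs the log2 changes were -4.01 ± 0.09 (SE) for ENST00000280557 and -4.11 ± 0.10 for ENST00000455982. They ranked 5 and 4 from the lowest among 131311 transcripts fitted, whose median was -0.01.

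In Ribo-seq, which aims to count mRNA fragments protected by ribosomes, cells with the same siRNAs lost much less of the signal. ENST00000280557 stood at 18.4 and 16.5 CPM in siControl, 9.26 and 9.66 with siRNA #1, and 10.4 and 6.23 with siRNA #2. All 4 siDENR libraries lay below both controls, and the 2 libraries of siRNA #2 were further apart than those of siRNA #1. The mean left was 54.3% with siRNA #1 and 47.8% with siRNA #2. ENST00000455982 stood at 14.6 and 12.7 CPM in siControl, 9.26 and 9.61 with siRNA #1, and 10.3 and 6.11 with siRNA #2, or 69.2% and 60.0% of control. The log2 changes were -0.97 ± 0.12 and -0.63 ± 0.13 (SE). Without library 1 of siRNA #2 the loss with that siRNA was deeper, with log2 changes of -1.51 for ENST00000280557 and -1.19 for ENST00000455982 in place of -1.04 and -0.71. Without library 2 of siRNA #2 it was shallower, at -0.75 and -0.42.

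**Figure D1:**
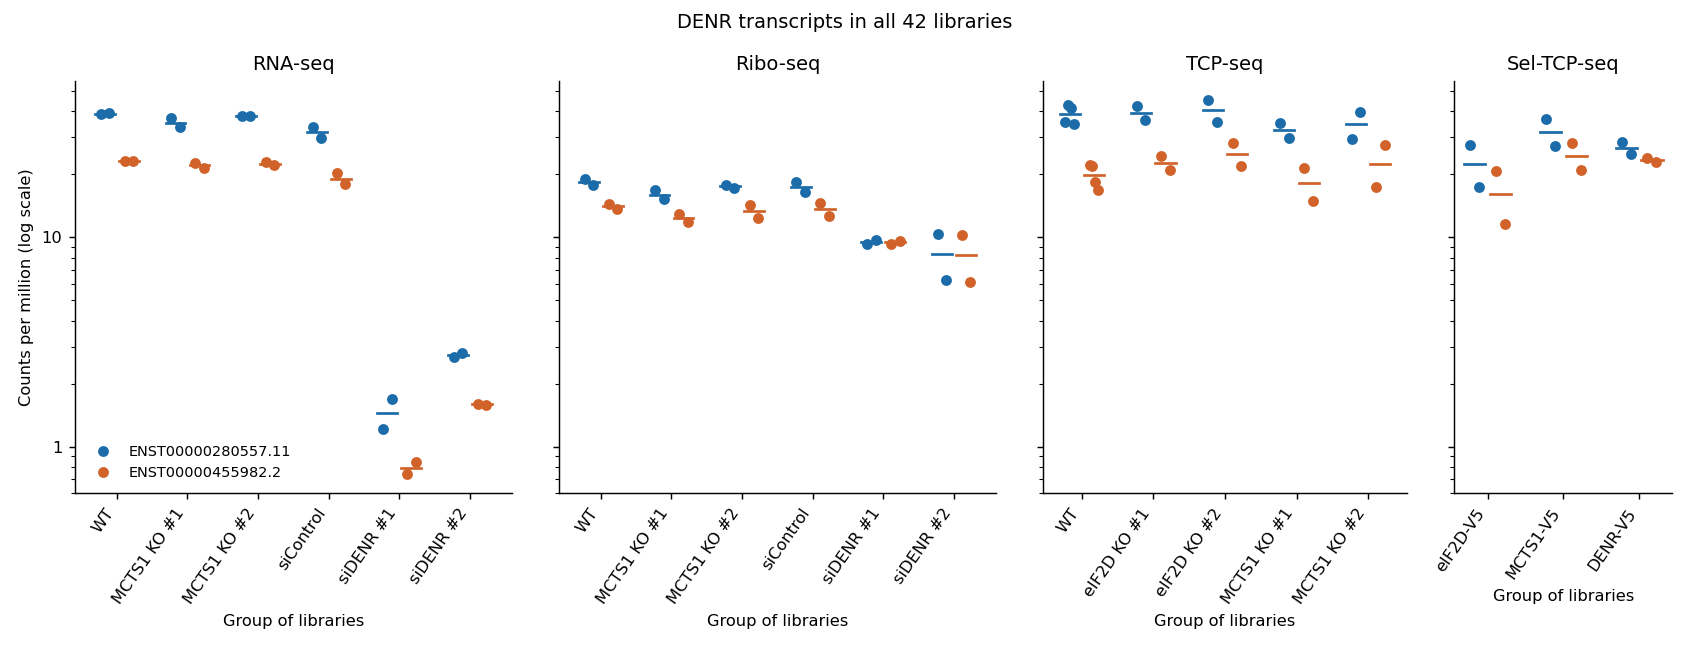
Level of ENST00000280557 (blue) and ENST00000455982 (orange) in all 42 libraries, in CPM on a log scale, by assay and group; each point is a library and each bar the mean of a group. In RNA-seq the siDENR libraries sit at 0.737 to 2.80 CPM, below all others, while in Ribo-seq they sit at 6.11 to 10.4 CPM, and no TCP-seq or Sel-TCP-seq group stands apart in this way.

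Set against each other, the assays gave a ratio of Ribo-seq to RNA-seq CPM for ENST00000280557 of 0.473 in WT, 0.453 in MCTS1 KO #1, 0.459 in MCTS1 KO #2 and 0.549 in siControl. After silencing the ratio was 6.53 with siRNA #1 and 3.03 with siRNA #2. For ENST00000455982 it was 0.717 in siControl, 11.9 with siRNA #1 and 5.13 with siRNA #2. The log2 change in Ribo-seq relative to RNA-seq was 3.04 ± 0.16 (SE) and 3.47 ± 0.17. By this ratio the transcripts ranked 40 and 30 from the highest of 102515. Whether the Ribo-seq counts left after silencing came from ribosome-protected mRNA was not tested, so the ratio is not given as ribosome load. Of those 102515 transcripts, 10 fell by more than 2 on the log2 scale in RNA-seq and 5 by more than 3.

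**Figure D2:**
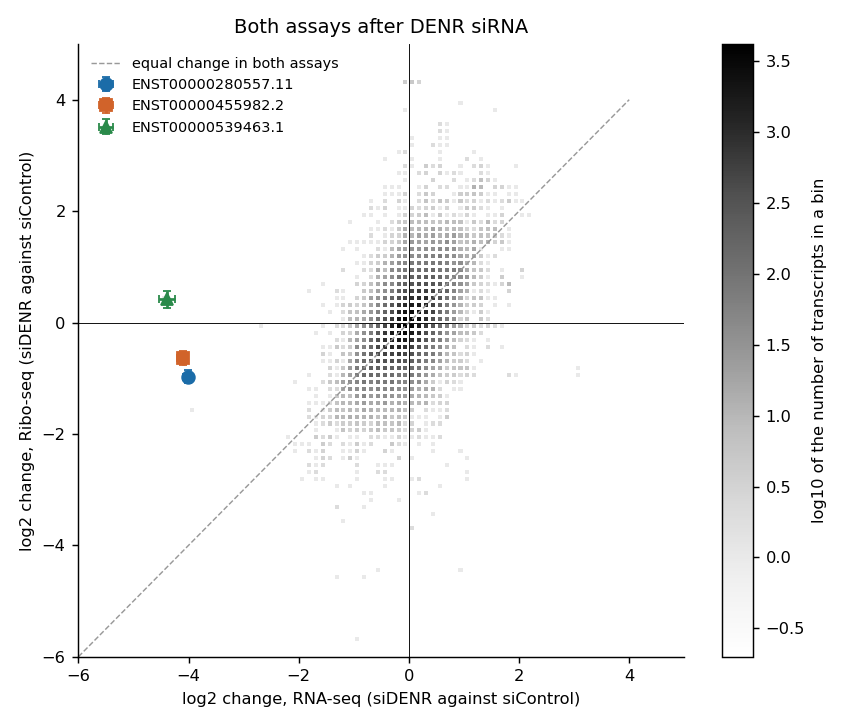
log2 change after DENR siRNA against control siRNA in RNA-seq (x axis) and Ribo-seq (y axis); grey squares are small bins shaded by the number of the 102515 transcripts fitted, and the coloured points with SE bars are 3 named transcripts. ENST00000280557 and ENST00000455982 lie near -4 in RNA-seq and between -1 and 0 in Ribo-seq, and ENST00000539463 lies above 0 in Ribo-seq.

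Which rows held the Ribo-seq counts that were left could be read from other transcripts. The 2 transcripts most like ENST00000280557, beside ENST00000455982, were chosen by Pearson correlation of log2(CPM + 1), centred within each assay, over the 24 RNA-seq and Ribo-seq libraries and among 28669 transcripts with a mean of at least 5 CPM in both assays. They were ENST00000261590.13 (r = 0.948) and ENST00000539463.1 (r = 0.933), where ENST00000455982 had r = 0.996. These coefficients describe libraries in which the 4 siDENR libraries of each assay carry most of the variation. ENST00000261590 had 59.2% and 67.9% of its control level in RNA-seq and 74.1% and 77.2% in Ribo-seq with siRNAs #1 and #2. Each of these shares lay above those of both DENR transcripts in the same assay. In 40S Sel-TCP-seq ENST00000261590 averaged 37.8 CPM with eIF2D-V5 and 4.42 with MCTS1-V5, a log2 change of -3.10 ± 0.58 (SE), given as a description. With DENR-V5 it averaged 15.7 CPM (12.4 and 19.1), between the other lines. The MCTS1-V5 mean rests on 3.22 and 5.62 CPM, only a few counts at the low totals of Sel-TCP-seq. ENST00000280557 averaged 22.5 CPM with eIF2D-V5, 31.9 with MCTS1-V5 and 26.7 with DENR-V5.

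ENST00000539463 gave other values. Its count never exceeded that of ENST00000280557 in any of the 42 libraries, which also holds for ENST00000455982 and is common, since it was so for 142088 of the 226882 rows, 133268 of them with a count. In RNA-seq its count was 11.6% to 21.0% of the count of ENST00000280557 in the 4 siDENR libraries and 21.4% to 24.5% in the other 8, ranges that nearly touch but do not overlap. The RNA-seq level of ENST00000539463 was 3.79% and 6.21% of control with the 2 siRNAs. Its log2 change over both siRNAs was -4.39 ± 0.14 (SE), rank 3 from the lowest of 131311 and below both DENR transcripts. By Ribo-seq relative to RNA-seq it ranked 15 from the highest of 102515, above both. In Ribo-seq its level was not lower after silencing: it stood at 7.21 and 5.90 CPM in siControl, 9.14 and 9.61 with siRNA #1, and 10.2 and 5.99 with siRNA #2. Library 2 of siRNA #2 thus lay within the range of the controls and the other 3 lay above it.

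With either siRNA, the counts of the 3 transcripts in Ribo-seq became nearly equal. With siRNA #1, ENST00000280557 had 227 and 199 counts, ENST00000455982 had 227 and 198, and ENST00000539463 had 224 and 198. With siRNA #2 the counts were 287 and 102, 283 and 100, and 282 and 98. The count of ENST00000539463 was therefore 98.7% (96.2 to 99.7) and 99.5% (97.2 to 100.0) of that of ENST00000280557 with siRNA #1, and 98.3% (96.0 to 99.4) and 96.1% (90.3 to 98.9) with siRNA #2. In the 8 Ribo-seq libraries without a DENR siRNA this share ranged from 34.4% to 45.6%, so the ranges do not overlap. The share of ENST00000455982 was 98.0% to 100.0% in the 4 siDENR Ribo-seq libraries and 71.9% to 80.3% in the other 8. In RNA-seq the shares of ENST00000455982 were 50.0% to 61.0% in the siDENR libraries and 58.0% to 63.9% in the rest, which overlap. Those of ENST00000539463 were lower with siDENR, but on few counts and with intervals that mostly reached the other libraries, as given above.

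**Figure D3:**
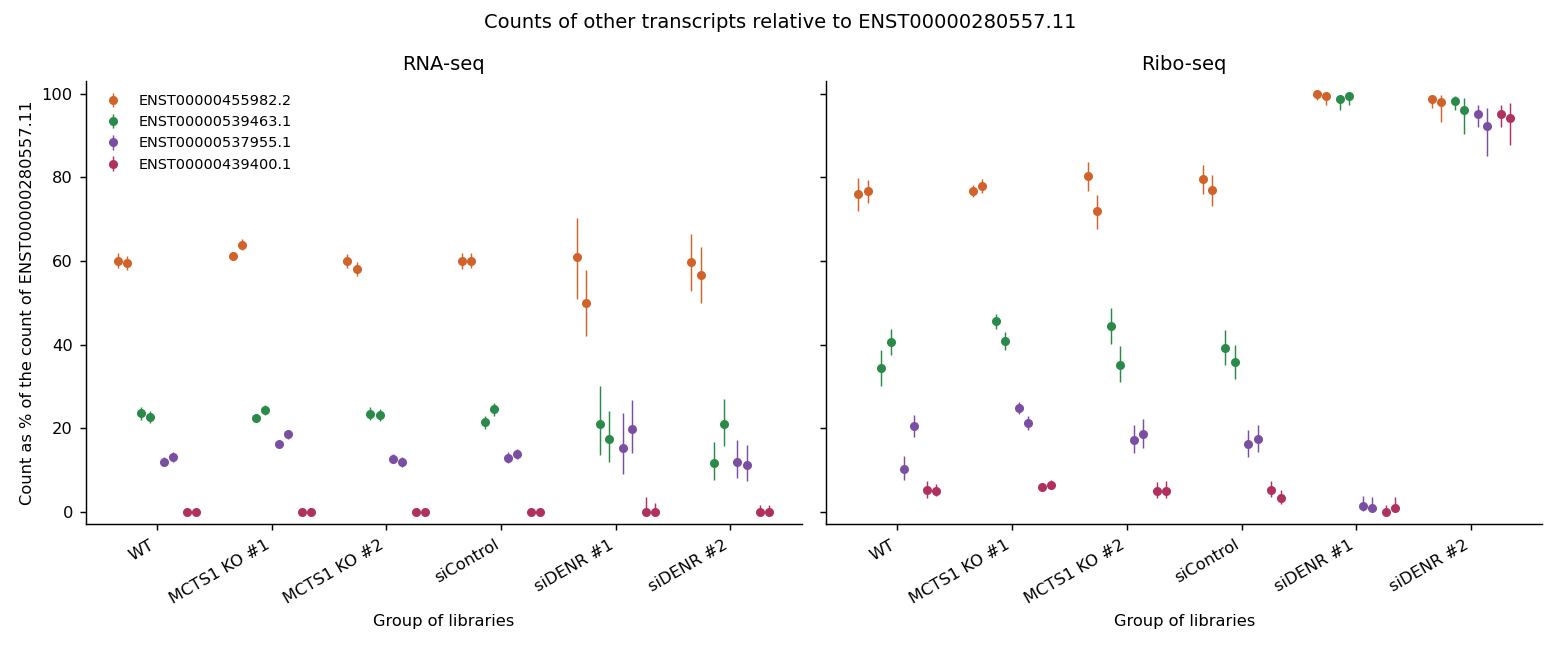
Count of 4 other transcripts as a percent of the count of ENST00000280557 in each RNA-seq (left) and Ribo-seq (right) library, with 95% Clopper-Pearson intervals as bars. In Ribo-seq with siDENR, ENST00000455982 and ENST00000539463 reach 96.1% to 100.0%, and ENST00000537955 and ENST00000439400 reach 92.2% to 95.1% with siRNA #2 but at most 1.32% with siRNA #1.

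As a description of the same near equality, the counts of ENST00000280557 that lay beyond those of ENST00000539463 were 328 and 348 in the siControl Ribo-seq libraries, 3 and 1 with siRNA #1, and 5 and 4 with siRNA #2. In RNA-seq the summed difference was 4378 counts in the 2 siControl libraries and 588 in the 4 siDENR libraries. Scaled to the pooled totals of these libraries, that was 24.2 and 1.70 CPM. ENST00000539463 was chosen by its likeness over these very libraries, a correlation that does not set the ratio of counts. The small remainder in Ribo-seq restates that ENST00000539463 and ENST00000280557 had nearly equal counts with siDENR. It is not taken as a measure of the depth of the knockdown. The files also do not state whether every read counted for ENST00000539463 was counted for ENST00000280557.

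The rows that shared the retained counts differed in part between the siRNAs. Rows were sought, after these values had been seen, whose count never exceeded that of ENST00000280557 in any library and held at least 90% of it in both Ribo-seq libraries of an siRNA. For both siRNAs there were 2 such rows besides ENST00000280557, namely ENST00000455982 and ENST00000539463. A further 3 rows held at least 90% with siRNA #2 and at most 5% with siRNA #1, and 0 rows the reverse. One of these, ENST00000537955.1, had 87 and 94 counts in siControl Ribo-seq, 3 and 2 with siRNA #1, and 273 and 94 with siRNA #2. Its RNA-seq level was 6.15% and 7.52% of control with siRNAs #1 and #2. Another, ENST00000439400.1, had 0 counts in all 12 RNA-seq libraries. In Ribo-seq ENST00000439400 had 28 and 18 counts in siControl, 0 and 2 with siRNA #1, and 273 and 96 with siRNA #2, or 10.5 times its control level in CPM. By this rule, 2 rows held the counts left with either siRNA, and 3 more held nearly all of those left with siRNA #2 only. Read positions were not used here, so which stretch of the mRNA and which kind of fragment gave these counts was not tested.

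In the MCTS1 knockout, DENR transcripts differed little from wild type. In RNA-seq ENST00000280557 stood at 38.6 and 39.0 CPM in WT, 37.0 and 33.6 in MCTS1 KO #1, and 38.0 and 38.1 in MCTS1 KO #2. Both libraries of KO #1 lay below all 4 others. For the mean of both lines the log2 change was -0.08 ± 0.04 (SE), which did not pass the threshold (edgeR quasi-likelihood test, adjusted p = 0.104), in a comparison that called 24.9% of 131951 transcripts. Without library 1 of KO #1 it was -0.11 and passed (adjusted p = 0.0097). ENST00000455982 had a log2 change of -0.06 ± 0.04 (adjusted p = 0.32).

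The difference lay in KO #1. There ENST00000280557 fell by 0.17 ± 0.04 on the log2 scale (adjusted p = 4.4e-04 by edgeR's quasi-likelihood test), in a comparison that called 42.2% of transcripts, 21.7% of them all as lower, so such a call was common. In KO #2 the log2 change was 0.01 ± 0.04 (adjusted p = 0.90, 14.9% called). KO #1 against KO #2 gave -0.19 ± 0.04 (adjusted p = 1.4e-04), where 45.8% of transcripts were called and 23.0% lower, and -0.11 (adjusted p = 0.029) when scaled by library totals alone. For ENST00000455982, KO #1 against KO #2 gave -0.10 ± 0.05 and did not pass the threshold (edgeR quasi-likelihood test, adjusted p = 0.053). ENST00000455982 had -0.11 ± 0.05 in KO #1 (adjusted p = 0.041). That call was lost with DESeq2 (adjusted p = 0.13), with library totals (0.20), without the low-count filter (0.060) and with all 12 RNA-seq libraries in the fit (0.15). The log2 change itself was -0.11 with DESeq2 and without the filter, -0.12 with all 12 libraries and -0.072 with library totals. The call was also lost when either WT library, either library of KO #2 or library 2 of KO #1 was left out (adjusted p from 0.059 to 0.16, log2 changes from -0.12 to -0.085). The RNA-seq libraries of KO #1 were also the deepest, with 11140 and 5070 counts for ENST00000280557 against 3086 to 3419 in WT and KO #2. The part of depth in the difference was not tested.

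In Ribo-seq ENST00000280557 stood at 19.0 and 17.8 CPM in WT, 16.8 and 15.2 in MCTS1 KO #1, and 17.7 and 17.3 in KO #2. The ranges of WT and of the knockout lines did not overlap but nearly touched. The log2 change over both lines was -0.14 ± 0.08 (SE, edgeR, adjusted p = 0.33) for ENST00000280557 and -0.14 ± 0.09 (adjusted p = 0.41) for ENST00000455982, where 6.1% of 115412 transcripts were called. ENST00000280557 had -0.21 ± 0.09 in KO #1 (adjusted p = 0.13, 16.6% called) and -0.08 ± 0.10 in KO #2 (adjusted p = 0.76, 3.61% called). Without library 2 of WT, the change in KO #1 was -0.27 and passed (adjusted p = 0.040). KO #1 against KO #2 gave -0.13 ± 0.09 (adjusted p = 0.37, 18.6% called). Relative to RNA-seq, the changes were -0.08 ± 0.09 (adjusted p = 0.83) for ENST00000280557 and -0.09 ± 0.09 (adjusted p = 0.80) for ENST00000455982, with 0.872% of 108757 transcripts called. The share of ENST00000539463 in the counts of ENST00000280557 stayed within 35.2% and 45.6% in the 4 MCTS1 KO Ribo-seq libraries.

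**Figure D4:**
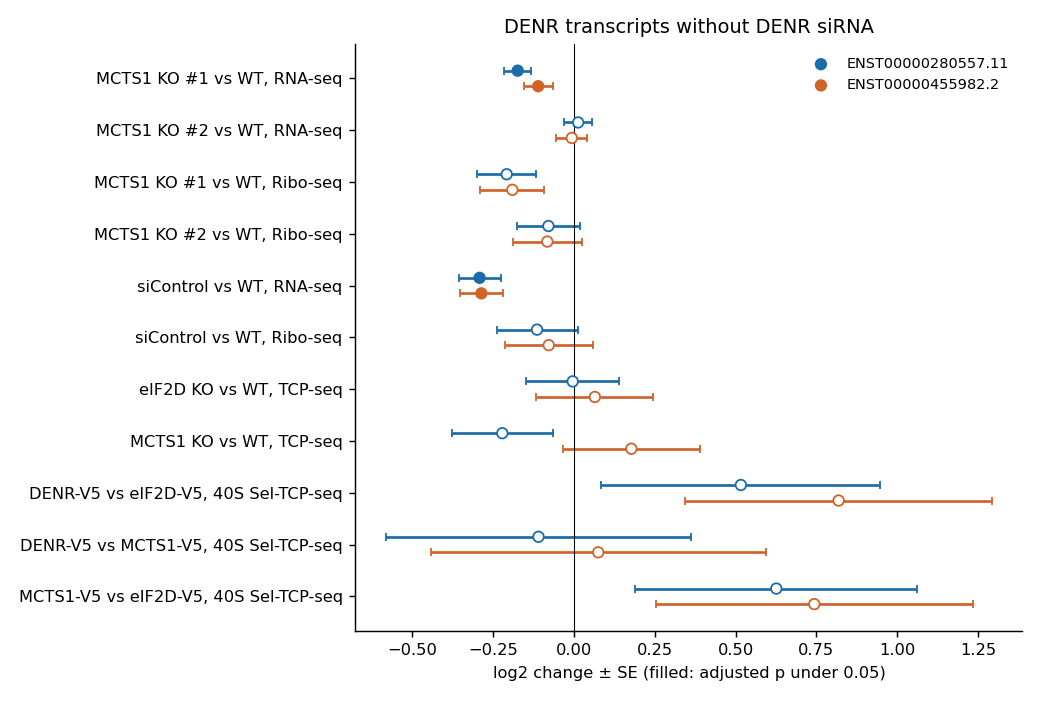
log2 change with its SE (x axis) of ENST00000280557 (blue) and ENST00000455982 (orange) in comparisons without a DENR siRNA; filled points have an adjusted p under 0.05 in edgeR's quasi-likelihood test. The filled points are MCTS1 KO #1 and siControl against WT in RNA-seq, with log2 changes from -0.29 to -0.11.

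Cells with the control siRNA had a lower DENR mRNA level than wild type cells. The siControl libraries of RNA-seq, at 33.6 and 29.8 CPM, lay below both WT libraries, at 38.6 and 39.0. ENST00000280557 fell by 0.29 ± 0.06 on the log2 scale (SE, edgeR quasi-likelihood test, adjusted p = 5.6e-04) and ENST00000455982 by 0.29 ± 0.07 (adjusted p = 8.0e-04). In this comparison 27.3% of 135066 transcripts were called, and 13.4% were called lower. Without library 2 of siControl, the changes were smaller, at -0.23 and -0.22. That fit has no replicate of siControl, so it cannot decide whether the calls rest on that library. In Ribo-seq the changes were -0.11 ± 0.13 (adjusted p = 0.64) and -0.08 ± 0.14 (adjusted p = 0.79), where 11.4% were called. Relative to RNA-seq they were 0.16 ± 0.14 (adjusted p = 0.63) and 0.19 ± 0.14 (adjusted p = 0.55), where 2.8% were called. Transfection, the control siRNA and any other difference between these cultures cannot be told apart.

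By group mean, ENST00000280557 was ordered in RNA-seq as WT (38.8 ± 0.271 CPM, SD), MCTS1 KO #2 (38.1 ± 0.0284), MCTS1 KO #1 (35.3 ± 2.40), siControl (31.7 ± 2.70), siDENR #2 (2.74 ± 0.0851) and siDENR #1 (1.45 ± 0.339), with n = 2 each. The libraries of MCTS1 KO #1 and siControl overlapped, and WT and MCTS1 KO #2 did not differ past the threshold. In Ribo-seq the order was WT (18.4 ± 0.827), MCTS1 KO #2 (17.5 ± 0.298), siControl (17.4 ± 1.34), MCTS1 KO #1 (16.0 ± 1.16), siDENR #1 (9.46 ± 0.282) and siDENR #2 (8.32 ± 2.96). There, siControl overlapped the 3 groups next to it, and the siDENR groups overlapped each other.

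Among the libraries analysed, only TCP-seq covered the eIF2D knockout. ENST00000280557 stood at 35.3, 42.6, 41.6 and 34.7 CPM in the 4 WT libraries, 42.1 and 36.3 in eIF2D KO #1, 45.3 and 35.3 in eIF2D KO #2, 35.0 and 29.8 in MCTS1 KO #1, and 29.4 and 39.7 in MCTS1 KO #2. Every knockout line overlapped the WT range. Each knockout was set against the WT libraries whose names precede its own, WT 1 and 2 for eIF2D and WT 3 and 4 for MCTS1. In the eIF2D KO the log2 changes were -0.0038 ± 0.14 (SE, edgeR, adjusted p = 0.996) for ENST00000280557 and 0.06 ± 0.18 (adjusted p = 0.93) for ENST00000455982, with 1.61% of 50991 transcripts called. In the MCTS1 KO they were -0.22 ± 0.16 (adjusted p = 0.37) and 0.18 ± 0.21 (adjusted p = 0.62), with 13.8% called. The effects of the knockouts differed by 0.22 ± 0.21 (eIF2D minus MCTS1, adjusted p = 0.65) and -0.11 ± 0.28 (adjusted p = 0.88), where 3.54% were called. WT libraries 3 and 4 against 1 and 2 gave 0.02 ± 0.18 (adjusted p = 0.98) and -0.30 ± 0.23 (adjusted p = 0.63), where 2.59% were called. The sign of the change of ENST00000455982 in the MCTS1 KO depended on which WT libraries served as the control, since it was -0.12 against WT 1 and 2.

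ENST00000455982 stood in TCP-seq at 22.0, 21.8, 18.3 and 16.8 CPM in WT, 24.3 and 21.0 in eIF2D KO #1, 28.1 and 21.9 in eIF2D KO #2, 21.3 and 14.9 in MCTS1 KO #1, and 17.3 and 27.5 in MCTS1 KO #2. As with the first transcript, replicates of 1 line were often further apart than the lines. The share of the counts of ENST00000280557 held by ENST00000539463 was 31.4% to 61.4% over the 12 TCP-seq libraries.

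In the V5-selected 40S complexes the DENR transcripts were thinly counted. ENST00000280557 had 28 and 45 counts with eIF2D-V5, 13 and 17 with MCTS1-V5, and 18 and 12 with DENR-V5, or 27.5 and 17.4, 36.5 and 27.3, and 28.6 and 24.9 CPM. For this transcript the 3 lines overlapped, and DENR-V5 did not stand above the others. DENR-V5 against eIF2D-V5 gave a log2 change of 0.52 ± 0.43 (SE, edgeR, adjusted p = 0.40) for ENST00000280557 and 0.82 ± 0.47 (adjusted p = 0.22) for ENST00000455982, with 19.1% of 12135 transcripts called. MCTS1-V5 against eIF2D-V5 gave 0.63 ± 0.44 (adjusted p = 0.39) and 0.74 ± 0.49 (adjusted p = 0.36), with 7.31% called. Without library 2 of eIF2D-V5, the DENR-V5 changes were 0.09 and 0.30, so their size rests on that library. DENR-V5 against MCTS1-V5 gave -0.11 ± 0.47 (adjusted p = 0.97) and 0.08 ± 0.52 (adjusted p = 0.99). That comparison called 0 of 12135 transcripts with edgeR, or 0.0%, where 822 had an unadjusted p under 0.05, and DESeq2 called 0, where 256 did. Without library 1 of MCTS1-V5, edgeR called 202. At this depth, changes as large as 0.82 on the log2 scale did not pass the threshold, so these comparisons do not show that the lines are alike.

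ENST00000455982 had 21 and 30 counts with eIF2D-V5, 10 and 13 with MCTS1-V5, and 15 and 11 with DENR-V5. In CPM it ranged from 11.6 to 20.6 with eIF2D-V5, 20.9 to 28.1 with MCTS1-V5 and 22.8 to 23.8 with DENR-V5. By CPM, eIF2D-V5 thus lay below both other lines, nearly touching MCTS1-V5, but neither difference passed the threshold. Its share of the counts of ENST00000280557 was 66.7% to 91.7% in the 6 selected libraries, against 44.1% to 69.3% in the 12 unselected TCP-seq libraries, so these ranges overlap. No selected library lacked counts of either transcript. The samples hold no selection from untagged cells, so counts held by the tagged proteins and background cannot be told apart.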

How the data were processed

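The authors deposited 1 table of whole counts, with a row for each transcript. The submitters' processing notes name cutadapt, STAR, featureCounts and Subread, and the builds GRCh38.p13 and hg38. How strand was handled, and reads that match more than 1 transcript, is not stated by these notes. There were 190420 distinct count profiles among the 218062 transcripts with any count, so many rows hold identical counts. Whether reads were split between DENR and its pseudogenes was not tested.

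All tests used edgeR 4.0.16 (R 4.3.3): a robust quasi-likelihood fit to the deposited counts, TMM scaling, a low-count filter by filterByExpr (minimum count 10), and p-values adjusted after Benjamini and Hochberg over every transcript tested, called under 0.05. SE was taken as the absolute log2 change divided by the square root of F. Change in Ribo-seq relative to RNA-seq is the interaction of group and assay. Both DENR transcripts passed the filter in each comparison. siControl against WT drew on all 12 libraries of an assay, and TCP-seq on its 12. Single knockout lines are given for RNA-seq and Ribo-seq only. Alternatives were DESeq2 1.42.0, library totals, no filter, other libraries in the fit or as control, a replicate block, and each library left out. The tests were also run on counts simulated from the fitted model, which cannot show whether that model suits these libraries.

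Members, lists and rules were chosen with earlier results of these data known. Named transcripts are the members and the 2 others most correlated with ENST00000280557. ENST00000537955 and ENST00000439400 were named after their values were seen. A list of ribosome recycling and start codon factors was not tested, since no table used here pairs transcripts with symbols. The variance between libraries of a group was 1.20 to 6.45 times that of counting noise, and 0 pairs were identical. Of 52 samples, 10 were not analysed here. Leaving out each library was also run on the counts beyond ENST00000539463, chosen after seeing the data, and is not used.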

Additional observations from a re-analysis of the deposited data

Results flagged for a closer look

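The 2 MCTS1 knockout lines differed from each other in the RNA-seq level of ENST00000280557. ENST00000280557 was lower in line #1 than in line #2, with a log2 change of -0.19 (edgeR quasi-likelihood test, adjusted p = 1.4e-04), and both libraries of line #1 lay below both of line #2. Such a call was common, since 45.8% of 131951 transcripts were called in this comparison and 23.0% were called lower. Scaled by library totals alone, the change was -0.11 (adjusted p = 0.029). ENST00000455982 had a log2 change of -0.10 between the lines and was not called (edgeR quasi-likelihood test, adjusted p = 0.053).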

How the results depend on the processing

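Single knockout lines and single siRNAs aside, 148 values of ENST00000280557 and ENST00000455982 were computed under another setting with no library left out. Of these, 139 kept their direction and their side of the threshold (for siDENR, which was not tested, they stayed within the spread of replicates), and 9 changed sign, each for a change that had not passed the threshold. For single lines, the call of ENST00000455982 in MCTS1 KO #1 was lost as reported above, and 1 value changed sign. Scaling by library totals gave ENST00000280557 a log2 change of -0.029 in MCTS1 KO #2 against WT in RNA-seq and 0.064 in the eIF2D KO in TCP-seq, where no low-count filter gave 0.023. For ENST00000455982 in TCP-seq, use of the other 2 WT libraries gave -0.12 in the MCTS1 KO and 0.48 for eIF2D minus MCTS1, and all 4 WT libraries gave 0.19 for the latter. WT libraries 3 and 4 against 1 and 2 gave ENST00000280557 -0.038 without the filter and -0.0029 with DESeq2. DENR-V5 against MCTS1-V5 gave ENST00000455982 -0.032 with library totals and -0.019 with the replicate block. The cause was not tested.

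With 1 library left out, the log2 change of ENST00000280557 ran from -0.11 to -0.053 in the MCTS1 KO in RNA-seq, -0.20 to 0.16 in the eIF2D KO in TCP-seq, -0.20 to 0.16 between the WT pairs, and -0.51 to 0.18 for DENR-V5 against MCTS1-V5. That of ENST00000455982 ran from -0.031 to 0.017 in MCTS1 KO #2 in RNA-seq, -0.36 to -0.22 in siControl in RNA-seq, -0.19 to 0.0098 in MCTS1 KO #2 in Ribo-seq and -0.19 to 0.021 in siControl in Ribo-seq. In TCP-seq it ran from -0.013 to 0.14 in the eIF2D KO, -0.016 to 0.32 in the MCTS1 KO and -0.24 to 0.089 for eIF2D minus MCTS1, and it ran from -0.33 to 0.36 for DENR-V5 against MCTS1-V5.

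Deviations of libraries with the same replicate number correlated at -0.24 to 0.42 over 18 pairs of groups. The highest value was between siDENR #1 and #2 in RNA-seq. The main fits did not pair these libraries, and whether some of them shared a batch was not tested. With the replicate block, calls went from 2312 to 4057 for DENR-V5 against eIF2D-V5, 887 to 2524 for MCTS1-V5 against eIF2D-V5 and 0 to 4 for DENR-V5 against MCTS1-V5.

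Counts of all transcripts called depended on the setting or library left out. Over the settings, calls ranged from 19290 to 32808 for the MCTS1 KO in RNA-seq (32826 as reported), 2535 to 15372 in Ribo-seq (7037) and 417 to 4854 for Ribo-seq relative to RNA-seq (948). They ranged from 21941 to 41301 for siControl in RNA-seq (36838), 7666 to 13345 in Ribo-seq (13171) and 1224 to 5619 for the ratio of both (3035). In TCP-seq they ranged from 35 to 5294 for the eIF2D KO (823), 2225 to 7633 for the MCTS1 KO (7054), 247 to 4519 for the difference of both (1806) and 419 to 1699 between the WT pairs (1319). In Sel-TCP-seq they ranged from 381 to 4247 for DENR-V5 against eIF2D-V5 (2312), 203 to 2524 for MCTS1-V5 against eIF2D-V5 (887) and 0 to 202 for DENR-V5 against MCTS1-V5 (0).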
